A study of Mus musculus with 81 samples.

Results

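Cyfip2 and 7 partners of the WAVE complex (Nckap1, Nckap1l, Abi1, Abi2, Wasf1, Wasf2 and Brk1) were followed across the hearts of BXD mice and their parents on 2 diets. The genes were listed by name because Cyfip2 was already seen to divide these strains into a low and a high set, so the members were selected on the strain and parent levels of Cyfip2, which are given as a description, with no test. Of the 9 listed genes, 8 were found among the 22180 genes measured, each with 1 probe set. Cyfip1 had no probe set that carried its symbol alone, so it was not analysed here.

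Each of the 81 arrays held RNA pooled from about 5 male mice of 1 strain on 1 diet, 29 weeks old and fasted overnight. There were 42 chow pools and 39 high fat pools, and 39 strains had both: 37 BXD strains and the parents C57BL/6J and DBA/2J. BXD lines are inbred mice whose genomes are mosaics of those parents, and 3 further lines (BXD60, BXD79 and BXD92a) had chow alone. No other allele or agent is named for any group, the sources used here do not say what the high fat diet contained, and the protocol text that all arrays share describes chow only. Pooling hides the spread between animals, so no error below measures it. In the main fits, the error of a class difference is a spread between strain means. For diet and for diet by class it is a spread of the diet difference between strains. The tests of parents and among strains have strain as a term in the model. Their error is the variation left within strains once diet is accounted for, pooled over the 39 strains.

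Levels are in the rescaled units of the deposited values, which bring each array to the same mean (8) and the same SD (2) over its probe sets, so that 1 unit is 0.5 of an array's SD. Whether these are log2 values is unknown, so differences are in units with no fold. Levels of different genes are set side by side only to show how high a signal was. The 8 cardiomyocyte markers checked, among them the myosin Myh6 and the troponin Tnnt2, were measured on all arrays. Their lowest values ranged from 10.9 for the ventricular light chain Myl2 to 15.8 for the calcium pump regulator Pln. Over the same arrays the median gene had a mean level of 8.18.

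The WAVE complex links signals at the cell membrane to the actin skeleton. A CYFIP protein and a NAP protein (Nckap1, or Nckap1l in blood cells) form a platform that binds the small GTPase Rac, while an ABI protein, the small subunit Brk1 and a WAVE protein (Wasf1 or Wasf2) form the other arm. When Rac docks, the tail of the WAVE protein is freed and activates the Arp2/3 complex, which starts new actin branches. CYFIP proteins also bind the fragile X protein and take part in control of translation.

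The sequence just before the Cyfip2 start is shown because the strains divide on the array signal of this gene. It was read from RefSeq on GRCm38.p6, chr11:46312359-46312608, on the minus strand, and covers 250 bases upstream of the start of the gene, written 5′ to 3′ with CpG pairs in capitals.

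Cyfip2 upstream: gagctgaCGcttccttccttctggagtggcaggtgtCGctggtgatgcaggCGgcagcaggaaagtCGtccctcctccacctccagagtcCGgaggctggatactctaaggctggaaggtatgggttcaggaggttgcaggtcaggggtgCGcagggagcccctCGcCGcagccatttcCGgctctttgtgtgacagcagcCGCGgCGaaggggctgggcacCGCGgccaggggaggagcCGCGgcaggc

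This window comes from the reference genome, which is that of C57BL/6J, the parent with the high level. The DBA/2J sequence and the probe sequences of the array were not used here. Cyfip2 was read by 1 probe set. Whether a DBA/2J variant under the probes has a part in the split was not tested, for Cyfip2 or for Pttg1 below. The window held 16 CpG pairs against a median of 6 over 32851 RefSeq promoter windows, and its GC content was 66.4% against a median of 52.4%. On either strand it held no GC box (GGGCGG or its complement CCGCCC, present in 32.742% of windows), no CCAAT (present in 33.85%) and no TATAAA (present in 12.368%). None of these motifs contains another, and a missing match says only that the letters are not in the window. Among the members, 5 had an entry in the promoter table.

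Cyfip2, the subunit that carries the Rac docking surface, lay at 1 of 2 well separated levels in every strain. When the 37 BXD strains with both diets were ordered by their mean level, the widest gap lay between BXD56 at 10.249 and BXD62 at 11.865, a width of 1.616 units. That gap left 16 strains in a low class and 21 in a high class, and these are the strains just inside and just outside the boundary of 11.057.

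In the low class the chow arrays ran from 9.26 in BXD87 through a median of 10.054 to 10.46 in BXD56. Their high fat arrays ran from 9.396 in BXD48 through 9.871 to 10.218 in BXD98. In the high class the chow arrays ran from 11.894 in BXD50 through 12.259 to 12.687 in BXD71, and the high fat arrays from 11.74 in BXD63 through 12.158 to 12.537 in BXD61. The highest array of a low strain and the lowest array of a high strain were 1.28 units apart, with 0 arrays between them. All 39 strains with both diets were on the same side on both.

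The strain means averaged 9.93 ± 0.239 (SD, n = 16) in the low class and 12.21 ± 0.184 (SD, n = 21) in the high class, a difference of -2.28 units for low minus high. Within a class the strains covered 0.7715 units (low) and 0.71 units (high). The intraclass correlation, the share of the variance that the chow and high fat arrays of a strain have in common, was 0.981 over 39 strains, rank 5 of 22180 genes. It was 0.473 within the low class and 0.551 within the high class, against 0.155 for the median gene over all strains. Gaps wider than that of Cyfip2 were found for 5 genes (H2-Ea, Kcnma1, 2610507I01Rik, 5830417I10Rik and Nxpe4), and the median gene had a widest gap of 0.046 units. No partner came near it: their widest gaps ran from 0.0165 for Wasf2 to 0.0775 for Wasf1.

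The parents stood on opposite sides. C57BL/6J had 12.421 on chow and 12.416 on high fat, and DBA/2J had 9.974 and 9.897. The difference between their means was -2.48 units for DBA/2J minus C57BL/6J. Of the 37 BXD strains, 25 lay between the parents, 9 below both and 3 above both. The 3 strains with chow alone also fell clear of the gap, BXD60 at 10.074 and BXD79 at 9.735 on the low side and BXD92a at 12.313 on the high side, which gives 18 low and 22 high of 40 BXD strains.

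**Figure D1:**
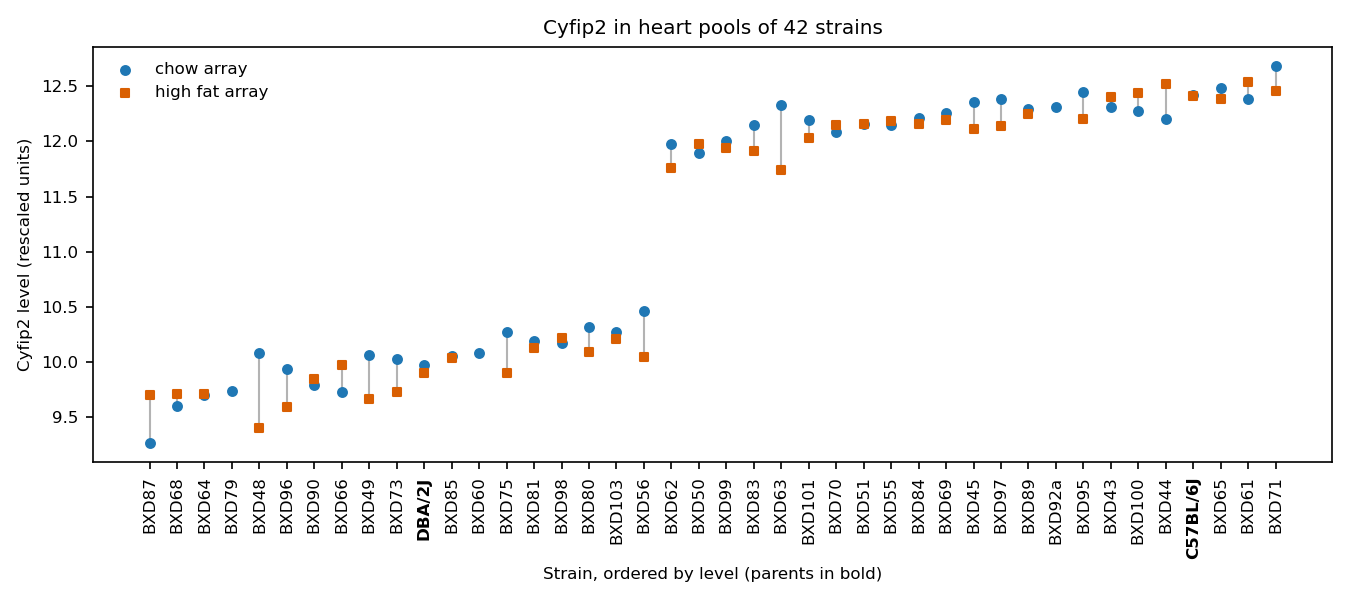
Cyfip2 level in rescaled units (vertical axis) on the chow array (circle) and the high fat array (square) of each of 42 strains, ordered by mean level, with a line joining the arrays of a strain and the parents in bold. No array lies between 10.46 and 11.74, DBA/2J is among the low strains and C57BL/6J among the high ones.

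None of the 7 partners differed between the low and the high Cyfip2 strains by limma with Benjamini-Hochberg adjustment over all genes (adjusted p = 0.9999 for each). Over all genes the class contrast called 3 of 22180, a share of 0.0135%, and 1004 genes had an unadjusted p under 0.05, 1 partner among them. Cyfip2 itself is 1 of the 3 because it defines the classes. The 95% intervals of the partners' differences, low minus high, reached at most 0.211 units on the side of a higher level in low strains. The class difference of Cyfip2 was -2.28. Cyfip1, the other CYFIP gene, is not among these partners, so its level in low strains is not known here.

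Nckap1, which pairs with the CYFIP subunit in the platform, had strain means of 11.6545 to 11.859 with a median of 11.739 in the low class and of 11.649 to 11.857 with a median of 11.767 in the high class. The classes overlapped over nearly their whole range, and the difference was -0.0248 ± 0.0241 (SE), with an interval from -0.0735 to 0.0240. Its blood cell paralog Nckap1l ran from 8.63 to 9.69 (median 9.22) in low strains and from 8.81 to 9.57 (median 9.05) in high strains. That difference was 0.0663 ± 0.0718 (SE), with an interval from -0.0789 to 0.211, the widest among the partners.

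Abi2, an adaptor that holds the WAVE arm together, came closest to a call. It ran from 9.6045 to 9.906 (median 9.7175) in the low class and from 9.676 to 9.936 (median 9.801) in the high class, so the classes overlapped while the low strains lay lower at the median. The difference was -0.0607 ± 0.0291 (SE), with an interval from -0.120 to -0.00195 and an unadjusted p of 0.0432. Its sign by class is that of Cyfip2. Between the parents the sign was the other way, at 0.199 ± 0.116 for DBA/2J minus C57BL/6J (SE; limma adjusted p = 0.498). Abi1, the related adaptor, had a class difference of -0.0230 ± 0.0393 (SE), with an interval from -0.102 to 0.0564.

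The WAVE proteins gave intervals on both sides of 0. Wasf1 differed by 0.0684 ± 0.0626 (SE; -0.0581 to 0.195) and Wasf2 by 0.00831 ± 0.0298 (SE; -0.0518 to 0.0684). Brk1, the smallest subunit, differed by -0.0249 ± 0.0344 (SE; -0.0944 to 0.0445). The signs of Abi1 on chow arrays alone (0.00294) and of Wasf2 with the parents added (-0.00143) were the other way. As a description over 39 strain means, which fall into 2 sets and share the arrays, the correlation of the partners with Cyfip2 ran from -0.132 for Nckap1l to 0.289 for Abi2.

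**Figure D2:**
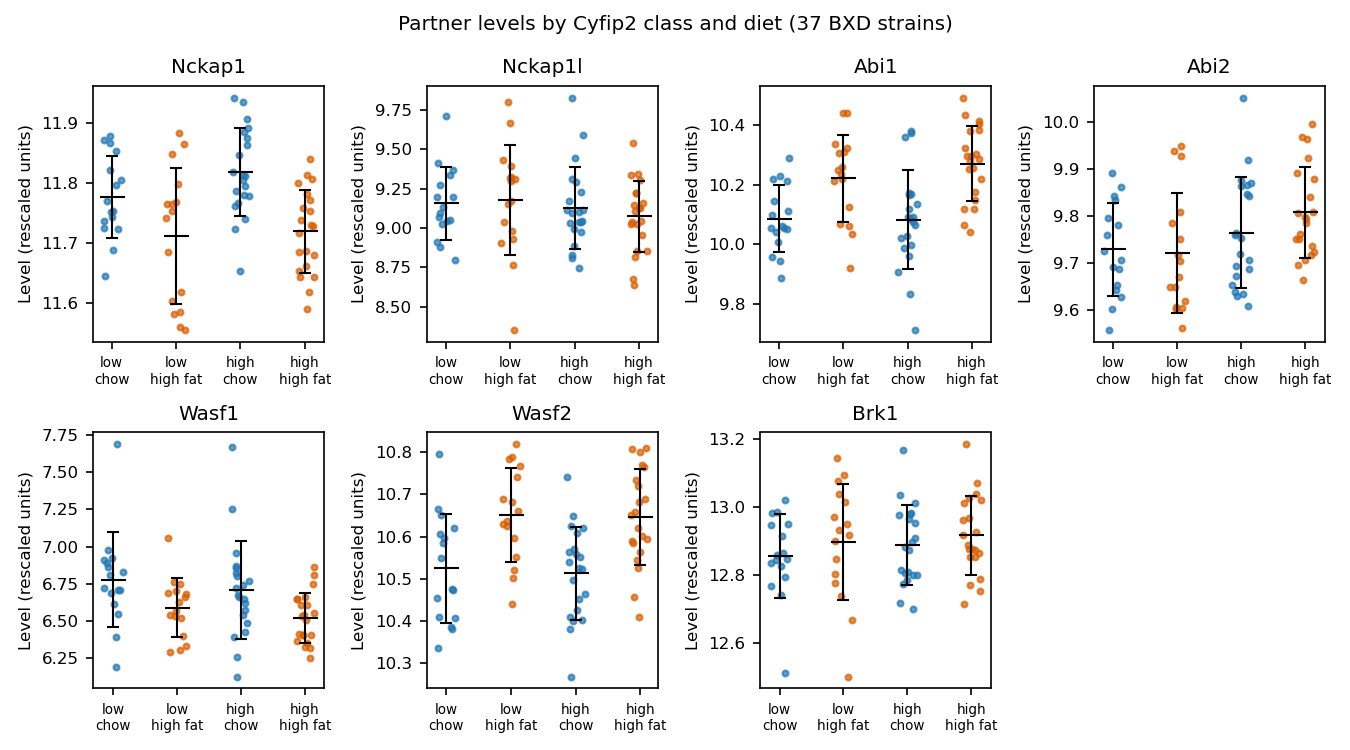
Level of each of 7 partners in rescaled units (vertical axis, with its own range in each panel) by Cyfip2 class and diet in 37 BXD strains, where each point is 1 array and bars show the mean and SD. The low and high classes overlap in every panel, with Abi2 medians of 9.7175 in low and 9.801 in high strains over both diets.

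The other genes called by class were Pttg1 and Rufy1, both lower in the low Cyfip2 strains and both on chromosome 11, where Cyfip2 lies. Pttg1 encodes securin, which holds back the separation of sister chromatids until anaphase, and 20 measured genes lie between it and Cyfip2. It averaged 7.99 ± 0.563 (SD, n = 16) in low and 9.81 ± 0.505 (SD, n = 21) in high Cyfip2 strains. The difference was -1.82 ± 0.165 (SE), with a limma adjusted p of 1.14e-09 that stayed under 0.05 under every alternative tried. Pttg1 itself fell into 2 sets and was on the same side as Cyfip2 in 35 of 37 strains.

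In the other 2 strains the levels of Pttg1 and Cyfip2 lay on opposite sides. BXD55 had high Cyfip2 (12.164) with Pttg1 at 7.868 on chow and 7.463 on high fat. BXD66 had low Cyfip2 (9.8435) with Pttg1 at 10.015 and 9.863. The remaining 15 low strains had Pttg1 between 7.54 and 8.17 and the remaining 20 high strains between 9.66 and 10.19, so the means of BXD55 (7.67) and BXD66 (9.94) lay inside the range of the opposite set. The parents differed at Pttg1 too, with C57BL/6J at 10.144 and 9.587 and DBA/2J at 7.488 and 8.004 (-2.12 units, limma adjusted p = 3.58e-10).

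Rufy1, an endosomal adaptor, is separated from Cyfip2 by 56 measured genes on the other side. It averaged 9.63 ± 0.0765 (SD, n = 16) in low and 9.81 ± 0.110 (SD, n = 21) in high strains, a difference of -0.180 ± 0.0342 (SE) with an adjusted p of 0.0374. This call was lost without any 1 of 25 of the 37 strains (adjusted p up to 0.102 without BXD48) and remained only where the strain left out was BXD51, BXD64, BXD70, BXD71, BXD80, BXD81, BXD84, BXD85, BXD87, BXD90, BXD97 or BXD101. It was also lost on chow arrays alone (adjusted p = 0.892) and on high fat arrays alone (adjusted p = 0.511), while the difference stayed between -0.193 and -0.170 as strains were left out. The parents' difference in Rufy1 was -0.151 with an adjusted p of 0.688.

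Genes closer to Cyfip2 did not share its split. Of the 20 nearest measured genes, 10 on each side, 0 were called by class and 2 had an unadjusted p under 0.05. Their differences had a median size of 0.0437 units and reached 0.0990 units, the value of the Mediator subunit Med7 (-0.0990, unadjusted p = 0.0102 in the limma fit). None of the 20 was called between the parents. Within 60 measured genes on each side, 2 of 120 were called, Pttg1 and Rufy1.

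**Figure D3:**
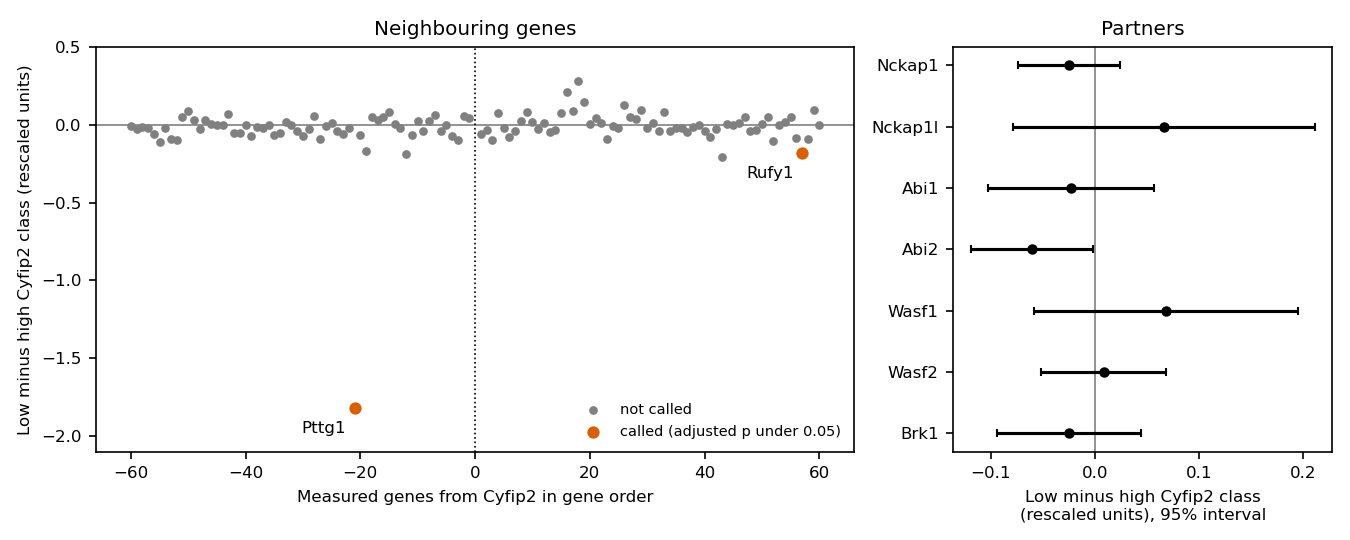
Left, the low minus high Cyfip2 class difference in rescaled units (vertical axis) for 120 measured genes by their place from Cyfip2 in gene order (horizontal axis), with called genes in orange. Pttg1 stands alone at -1.82. Right, the same difference with its 95% interval for 7 partners, all between -0.120 and 0.211.

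By Pearson correlation over the 39 strain means, the patterns most like that of Cyfip2 were those of Pttg1 (r = 0.856), Rufy1 (0.660), the mitochondrial ribosomal protein gene Mrpl55 (0.619), the translocon subunit gene Ssr3 (0.611) and Zfp672 (0.601). All but Ssr3, on chromosome 3, are on chromosome 11. The lowest correlations among named genes, with 1 gene left unnamed by the naming rule after B3gat1, were those of B3gat1 (-0.505), Asb14 (-0.491), Anapc13 (-0.489), Epcam (-0.485) and Syt4 (-0.485). These are descriptions over strains that fall into 2 sets on Cyfip2.

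Between the diets, 5 of the 8 members changed by limma with strain as a term: Abi1 and Wasf2 rose on high fat, and Nckap1, Wasf1 and Cyfip2 fell. Diet called 45% of all genes, 23.8% as higher and 21.2% as lower, so 5 of 8 is close to the background and is no result about the complex. The median difference was 0.00271 over the members and 0.00526 over all genes. In whole heart RNA, fewer cells of a type and less RNA per cell cannot be told apart.

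Abi1 ran from 9.711 (BXD71) through 10.076 to 10.382 (BXD99) on chow and from 9.919 (BXD68) through 10.28 to 10.524 (C57BL/6J) on high fat. The ranges overlapped, and the high fat array was the higher one in 32 of 39 strains. The mean moved from 10.084 ± 0.140 to 10.258 ± 0.139 (SD, n = 39), a difference of 0.174 ± 0.0275 (SE), with a 95% interval from 0.119 to 0.229 and a limma adjusted p of 1.63e-06.

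Wasf2, the WAVE protein of most tissues, ran from 10.268 (BXD44) through 10.54 to 10.795 (BXD75) on chow and from 10.337 (DBA/2J) through 10.637 to 10.819 (BXD85) on high fat. It was higher on high fat in 30 of 39 strains. The difference was 0.117 ± 0.0288 (SE), with a limma adjusted p of 0.000947.

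Wasf1, the WAVE protein best known from neurons, moved the other way. It was low on these arrays, with a mean level of 6.64 that exceeded 20.6% of genes (8.18 for the median gene). It ran from 6.124 (BXD63) through 6.72 to 7.69 (BXD81) on chow and from 6.234 (DBA/2J) through 6.542 to 7.055 (BXD66) on high fat, and it was lower on high fat in 27 of 39 strains. The difference was -0.178 ± 0.0534 (SE; limma adjusted p = 0.00600). The chow arrays of BXD81, BXD43 and BXD61, at 7.69, 7.668 and 7.253, stood above every high fat array. Neuronal markers were measured beside it: 2 of 12 rose and 5 fell on high fat, and their summed level ran from 85.9 through 88.6 to 90.9 on chow and from 86.2 through 88.1 to 90.4 on high fat. Their part in the result was not tested.

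Nckap1 fell by 0.0793 ± 0.0215 (SE; limma adjusted p = 0.00248) and was lower in 28 of 39 strains. It ran from 11.645 (BXD75) through 11.796 to 11.942 (BXD100) on chow and from 11.555 (BXD68) through 11.739 to 11.912 (DBA/2J) on high fat, so the shift was small beside the overlap.

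Cyfip2 differed by -0.0936 ± 0.0370 (SE), with an interval from -0.168 to -0.0189 and a limma adjusted p of 0.0362, and was lower on high fat in 26 of 39 strains. The difference ran from -0.684 in BXD48 through a median of -0.061 to 0.435 in BXD87, and these extremes are both low strains. Set beside the gap of 1.616 units between the classes, the diet difference was small. It was not called when the strain term was dropped, on the same 78 arrays (-0.0936, limma adjusted p = 0.803) or over all 81 arrays, the 3 with chow alone included (-0.0534, limma adjusted p = 0.889). Without that term the error holds the strain split (SD 1.16 over 39 chow arrays), so these fits cannot judge so small a difference. With the strain term, the call was lost when any 1 of BXD45, BXD48, BXD49, BXD56, BXD63, BXD73, BXD75, BXD83, BXD95, BXD96 or BXD97 was left out (adjusted p up to 0.0640). The other called members kept their calls as each of the 39 strains was left out.

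The remaining members were not called between the diets. Brk1 differed by 0.0327 ± 0.0286 (SE; -0.0249 to 0.0904), Abi2 by 0.0206 ± 0.0262 (SE; -0.0323 to 0.0734) and Nckap1l by -0.0152 ± 0.0442 (SE; -0.104 to 0.0740), with limma adjusted p of 0.364, 0.548 and 0.804. Control probe sets for ERCC spike-in RNA also differed between the diets: 37 of 92 (40.2%) were called, and their differences had a 95th percentile size of 0.247 units and a maximum of 0.430. All 8 members' differences were smaller than that percentile. The control probe sets had a mean level of 5.96, below the 6.64 of Wasf1, the dimmest member. No source used here says whether spike-in RNA was added. Whether the spread of these dim controls holds at the levels of the members was not tested. What sets the control probe sets apart by diet, and its part in these results, was not tested.

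The diet differences were then set side by side in the Cyfip2 classes. Abi1 differed by 0.136 (0.0427 to 0.230) in 16 low strains and by 0.188 (0.109 to 0.268) in 21 high strains, and Wasf2 by 0.128 (0.0273 to 0.228) and 0.133 (0.0547 to 0.212). Nckap1 differed by -0.0658 (-0.153 to 0.0211) and -0.0989 (-0.160 to -0.0375), and Wasf1 by -0.191 (-0.351 to -0.0310) and -0.187 (-0.344 to -0.0299). Cyfip2 differed by -0.123 (-0.266 to 0.0190) in low strains, where 10 of 16 were lower, and by -0.0758 (-0.167 to 0.0156) in high strains, where 14 of 21 were lower.

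The test of diet by class called 0 of the 8 members and 0% of all 22180 genes by limma, with 835 genes and 0 members at an unadjusted p under 0.05. For Cyfip2 the difference between the classes was -0.0476 units, with an interval from -0.207 to 0.112. For Abi1 it was -0.0519, with an interval from -0.166 to 0.0620. These intervals reach sizes about as large as the diet differences themselves, so they do not show that the classes respond alike.

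**Figure D4:**
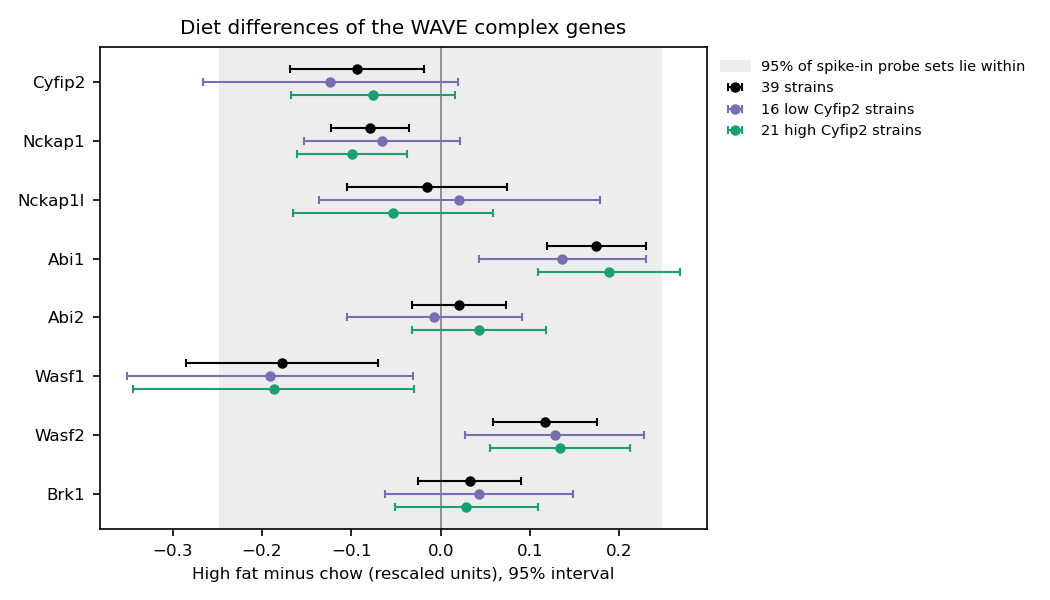
High fat minus chow difference of 8 members in rescaled units (horizontal axis) with 95% intervals in 39 strains (black), 16 low Cyfip2 strains (purple) and 21 high Cyfip2 strains (green). All points lie within the grey band of ±0.247 that holds 95% of the spike-in control probe sets, and the intervals of the classes overlap for every gene. The control probe sets had a mean level of 5.96, below that of every member.

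Among strains, limma's F test called 14.8% of all genes and 1 of the 7 partners, Nckap1l. This gene, also called Hem1, encodes the NAP subunit of blood cells. Its strain means ran from 8.63 in BXD48 through a median of 9.136 to 9.69 in BXD80, with no wide gap, an intraclass correlation of 0.477 and an adjusted p of 0.00534. Abi1 had an intraclass correlation of 0.328 and an adjusted p of 0.141. Wasf1 (0.162), Brk1 (0.139), Abi2 (0.0978), Nckap1 (0.0818) and Wasf2 (-0.0644) had lower ones and adjusted p from 0.248 to 0.816 in the same limma fit.

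Nckap1l followed the level of myeloid markers across strains. Its strain means correlated with the mean of 10 such markers (r = 0.837 and rho = 0.824 over 39 strains). The permutation p was 1e-05 for each, the smallest the draws can give, and 3e-05 adjusted over 3 relations. Among the markers are Csf1r, Adgre1 and Ptprc, the last of which lymphocytes also carry. Without BXD48 and BXD80, the strains farthest from the median of Nckap1l, r was 0.793. It was 0.759 on chow arrays and 0.835 on high fat arrays. With 8 lymphocyte markers r was 0.325 and rho 0.245 (permutation p = 0.044 and 0.132, adjusted 0.066 and 0.198), and r fell to 0.138 without those 2 strains. The lymphocyte markers were dimmer. Their mean levels exceeded 14.7% (Ms4a1) to 48.7% (Cd3e) of genes, against 49.4% (Itgam) to 96.1% (Lyz2) for the myeloid markers. For Wasf1 and the 12 neuronal markers r was 0.0258 and rho 0.0283 (permutation p = 0.876 and 0.863), and r was 0.135 without BXD43 and BXD81.

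Of the 10 myeloid markers, 7 were called among strains, against 14.8% of all genes. On high fat 4 rose, none fell and 6 were not called, beside 23.8% of all genes called higher and 21.2% called lower. Their summed level ran from 93.3 through 96.7 to 102.4 on chow and from 92.7 through 97.8 to 103.7 on high fat. It ran from 93.1 through 97.4 to 101.4 in low Cyfip2 strains and from 93.5 through 96.8 to 101.6 in high ones, and 0 of the 10 were called by class. The part of the number of myeloid cells in the strain differences of Nckap1l was not tested.

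**Figure D5:**
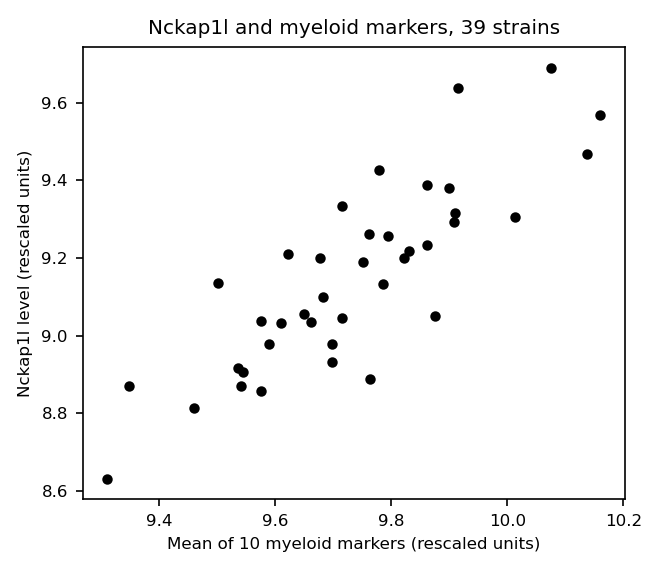
Strain mean of Nckap1l (vertical axis) against the mean of 10 myeloid markers (horizontal axis), both in rescaled units and averaged over both diets, with 1 point for each of 39 strains. The strains rise together from BXD48 at 8.63 to BXD80 at 9.69, with r = 0.837.

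Across strains, no pair of partners correlated past the adjustment over 21 pairs. Among them the highest correlation was that of Abi1 with Wasf2, the pair that rose on high fat (r = 0.413, permutation p = 0.00855, adjusted p = 0.158; rho = 0.461, p = 0.0033, adjusted p = 0.0693). For this pair r was 0.482 without BXD71 and BXD68, 0.379 on chow and 0.330 on high fat.

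Between the parents, limma called 2.36% of all genes and 0 of the 7 partners, with 1 partner at an unadjusted p under 0.05. That was Wasf1, whose low level was given above. It was at 6.748 and 6.752 in C57BL/6J and 6.186 and 6.234 in DBA/2J on chow and high fat, a difference of -0.540 ± 0.236 (SE; limma adjusted p = 0.295). None of the 37 BXD strains had a lower mean of Wasf1 than DBA/2J. DBA/2J also had a higher Nckap1 mean than all 37 BXD strains, at 11.918 and 11.912 against 11.763 and 11.804 in C57BL/6J (0.132 ± 0.0951 SE; limma adjusted p = 0.626).

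Several partners lay mostly outside the parents' range in the offspring. Of 37 BXD strains, 32 were below both parents for Nckap1l, 25 for Nckap1 and 23 for Abi1, and 31 were above both for Brk1. For Abi2 29 lay between them. The parents' means were close, with DBA/2J minus C57BL/6J at 0.057 for Brk1 and -0.073 for Abi1. The SD of the 39 strain means was larger, at 0.0976 and 0.113. For Nckap1 the values were 0.132 and 0.0620, and for Nckap1l 0.260 and 0.237. Of these genes, only Nckap1l was called among strains. With 1 array per parent and diet, these counts rest on 4 arrays, and the differences of Abi1, Brk1 and Wasf2 changed sign when 1 of them was left out.

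The genes around the complex were described from lists by role, and the counts below are to be read against the 45% of all genes that diet called (23.8% higher, 21.2% lower). Of 22 Rac and Arf GTPases and their exchange factors, 6 rose and 3 fell on high fat (median 0.0478). Rac3 rose by 0.146, the exchange factor Dock1 by 0.104 and the blood cell GTPase Rac2 by 0.188 (limma adjusted p = 0.000193, 0.000445 and 0.00206). Of 6 measured Arp2/3 subunits 1 rose, Actr3 (0.0944, limma adjusted p = 0.00932), and none fell. Of 2 other paralogs of the complex, Abi3 rose by 0.124 (limma adjusted p = 0.00412) and Wasf3 was at -0.0127.

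Among 14 other factors that promote actin nucleation, 6 rose and 2 fell. Hcls1, a cortactin relative of blood cells, rose by 0.202 in 34 of 39 strains, the WASH subunit gene Washc5 by 0.0986, and Jmy fell by 0.146 (limma adjusted p = 1.17e-06, 7.35e-05 and 0.000554). Of 20 genes of actin turnover 9 rose and 1 fell. Coro1a, the coronin of white blood cells, rose by 0.324 and Dstn, which severs filaments, by 0.148 (limma adjusted p = 3.73e-08 and 1.17e-05). Beside Rac2, Hcls1 and Coro1a, 4 of 10 myeloid markers rose on high fat, as given above, and 6 were not called. The blood cell subunit Nckap1l was not called either (-0.0152, limma adjusted p = 0.804). The marker Ptprc averaged 8.53 on chow and 8.54 on high fat. Of 8 lymphocyte markers 1 rose and 4 fell. Their summed level ran from 56.2 through 58.5 to 62.4 on chow and from 56.3 through 57.7 to 60.1 on high fat. Of 8 cardiomyocyte markers 4 fell (sums of 117.6 through 119.03 to 120.9 on chow and 117.3 through 118.8 to 120.6 on high fat), and of 7 fibroblast markers 4 rose (75.1 through 78.1 to 80.9 and 76.2 through 78.8 to 81.8). The part of these cell types in the differences was not tested. Of 6 genes that work with CYFIP in translation, 0 rose and 1 fell, Eif4ebp1, the brake on eIF4E (fell by 0.124; limma adjusted p = 0.00837).

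The Cyfip2 class called none of the genes on these lists, and neither did diet by class. The parents, where 2.36% of all genes were called, gave 1 call, the cardiomyocyte marker Tnnt2. It was lower in DBA/2J (-0.3535, limma adjusted p = 0.0158). In the class contrast the smallest p among the listed genes was that of Wipf3, which binds WASP proteins (-0.158 ± 0.0407 SE, unadjusted p = 0.000375, limma adjusted p = 0.521). Among strains, where the F test called 14.8% of all genes, it called 5 of 22 Rac and Arf genes (Dock2 first), 1 of 6 Arp2/3 subunits (Arpc5), 2 of 14 nucleation factors (Wipf1 first), 5 of 20 turnover genes (Dstn first) and 2 of 6 translation partners (Fxr2 first). With several probe sets averaged, Arpc5 was not called (adjusted p = 0.139).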

How the data were processed

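Transcripts of pooled hearts were measured on Affymetrix arrays, with 1 array per strain and diet, and processed with Affymetrix Expression Console per the submitters' processing notes, which name no version. The authors deposited a score for each probe set, on a scale whose base no source used here names. Their values have the same mean (8) and SD (2) on all arrays, which removes shifts shared by most transcripts. The number of arrays limits the precision.

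Gene names came from the platform's table, in which 23521 probe sets have 1 symbol and 1814 several, while 16010 are unnamed here. The probe set with the highest mean was used for each of 22180 genes. Of their Entrez identifiers 21994 were found in RefSeq (GRCm38.p6), which gave gene order and promoters. No source used here names the array's build. Upstream windows match by symbol.

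Tests used limma 3.58.1 in R 4.3.3 with Benjamini-Hochberg adjustment over all genes and a threshold of 0.05. Diet, strain (F test) and parents came from 1 model with strain and diet terms over 78 arrays, and the strain labels give the pairing (median intraclass correlation 0.155). Class and diet by class were fitted on strain means and strain differences of 37 BXD strains, divided at the widest gap in Cyfip2 that leaves at least 5 strains on each side. Correlations used 100000 permutations and are two-sided. The fits were tested on simulated data.

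The members and lists were chosen with earlier results of these data known. Named genes are the members, up to 3 genes per list with the smallest adjusted p, the 5 genes with the highest and the 5 with the lowest correlation with Cyfip2 (leaving out microRNAs, predicted genes and receptors of the olfactory and vomeronasal families), and neighbours called by class. The other class calls, Med7 and the genes with wider gaps were named after their values were seen. Alternatives covered scaling, probe sets, dim genes, array weights, the variance trend, the strain term, the arrays and strains included and the class boundary. The planned test of Cyfip1 against Cyfip2 was not run.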

Additional observations from a re-analysis of the deposited data

How the results depend on the processing

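The counts of members called for diet, strain, parents, class and diet by class were the same or within 1.5 times under every alternative run. Without the strain pairing as a replicate block, the Cyfip2 diet difference was no longer called, at -0.0936 (limma adjusted p = 0.803) on the same 78 arrays, a fit added after the data were seen, and at -0.0534 (limma adjusted p = 0.889) over all 81 arrays. The error of these fits holds the strain split of Cyfip2, so they cannot judge a difference of this size. The other members' diet calls were the same in both of these fits. Leaving out each strain in turn, added after the data were seen, gave Cyfip2 diet differences from -0.107 to -0.0780 and adjusted p from 0.0125 to 0.0640. Signs that turned belonged to differences that were never called. Between the parents leaving out 1 array gave Abi1 from -0.225 to 0.0789 and Brk1 from -0.0126 to 0.127 (both turned without the high fat array of C57BL/6J), and Wasf2 from -0.349 to 0.0146 (turned without that of DBA/2J). By class they were Abi1 (0.00294) on chow arrays and Wasf2 (-0.00143) with the parents included. For diet by class they were Wasf2 (0.00784) and Brk1 (-0.0103) under quantile normalization and Wasf1 (0.00155) with the parents included. As each strain was left out, the diet by class difference also turned for Wasf1 in 19 of 37 fits (-0.0513 to 0.0495), for Wasf2 in 9 (-0.0227 to 0.0147) and for Brk1 in 3 (-0.00660 to 0.0465), and the diet difference of Nckap1l in 1 of 39 (-0.0331 to 0.00558). The cause of each turned sign was not tested. No depth can be read from array signal.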
